A study of Mus musculus with 6 samples.

Results

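The CC chemokine ligands described here are 10 genes, Ccl2, Ccl3, Ccl4, Ccl5, Ccl6, Ccl7, Ccl9, Ccl12, Ccl22 and Ccl24, taken by gene symbol from a count table of 45193 Ensembl genes. Their transcripts were counted in 3 knockout (RXRKO) and 3 wild-type (WT) libraries of polyadenylated RNA from mouse macrophages grown from bone marrow. RXRKO cells carried the genotype RXRafl/flLysMCre RXRb-/-, in which Cre recombinase driven from the lysozyme M locus deletes loxP-flanked Rxra in myeloid cells and both copies of Rxrb are null. WT cells are labelled WT with no allele named, and the labels give the C57BL/6J background for both genotypes. All marrow was cultured for 6 days with 20% FBS and 30% L929-conditioned medium, which supplies the growth factor CSF-1. The cells were moved to serum-free medium on the evening of day 5 and then given vehicle (DMSO) for 3 hours, with no stimulus. The labels call the replicates biological without naming the animals, so the spread that the p-values rest on may in part be technical.

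CC chemokines are small secreted proteins that bind G protein-coupled receptors on leukocytes and draw the cells toward their source. Ligands of CCR2 release monocytes from the marrow and bring them into tissue, ligands of CCR1 attract monocytes, T cells and other leukocytes, and ligands of CCR3 and CCR4 attract eosinophils and subsets of T cells. Macrophages are a main source of several of them, and many of these genes are induced within hours of an inflammatory stimulus. RXR alpha and beta are nuclear receptors that act as partners of many other nuclear receptors, among them receptors known to restrain inflammatory genes in macrophages.

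Library totals ran from 17250051 to 25091019 counts in RXRKO and from 7880320 to 14957253 counts in WT, and the mean RXRKO total was 1.87 times the WT mean. One read was therefore worth 0.0397 to 0.0582 CPM (reads scaled to a common library total) in RXRKO and 0.0653 to 0.130 CPM in WT. Rxrb averaged 9.27 ± 2.09 CPM in RXRKO and 66.7 ± 1.86 CPM in WT, and Lyz2, whose locus carries Cre, averaged 28.4 ± 6.12 CPM in RXRKO and 15258 ± 594 CPM in WT (SD, n = 3 each). Rxra averaged 109 ± 4.83 CPM in RXRKO and 104 ± 6.7 CPM in WT, and a count of the full gene cannot show a deletion between loxP sites. The X-inactivation transcript Xist had 3590, 6716 and 4339 reads in RXRKO replicates 1, 2 and 3 and 0 reads in every WT library, while the Y-linked gene Ddx3y averaged 51.7 ± 3.23 CPM in RXRKO and 107 ± 5.6 CPM in WT. Every RXRKO library thus held both Xist and Ddx3y transcripts, while every WT library held Ddx3y without Xist. The labels give no sex and name no animals. Whether RXRKO libraries pooled animals of both sexes was not tested, and pooling would bear on how independent the replicates are. Loss of RXR, loss of Lyz2, Cre and the sex makeup of the source animals therefore cannot be told apart in any difference below.

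Most CC chemokine ligands that could be tested were higher in RXRKO macrophages. Ccl7, Ccl2, Ccl4 and Ccl3 rose clearly, Ccl9 and Ccl6 rose by a small margin, Ccl5 did not pass the test, and Ccl22 fell on few reads. Ccl12 and Ccl24 had too few reads to be tested. Of 10 members, 8 passed the filter on low counts, and 7 of these were called, where 19.4% of all tested genes were. Of these 7, 6 were higher in RXRKO, where 9.77% of all 12011 tested genes were called higher, and 1 was lower, where 9.61% were called lower (edgeR quasi-likelihood test, Benjamini-Hochberg adjusted p below 0.05). Ccl7 passed the filter with all 3 RXRKO libraries and 1 WT library over its cutoff, and Ccl22 with 0 RXRKO libraries and 3 WT libraries over it, so both entered the test through the group in which they were high. The 3 RXRKO values lay entirely above the 3 WT values in 6 of the 8 tested members and entirely below them in 1, where 19.0% and 17.9% of all tested genes did so, 36.9% in all. The median log2 fold change was 0.56 over the 8 tested members and -0.0048 over all tested genes, and with Ccl7 and Ccl22 among the 8 it is a description only. In these bulk libraries, more cells that make a transcript and more transcript per cell cannot be told apart.

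**Figure D1:**
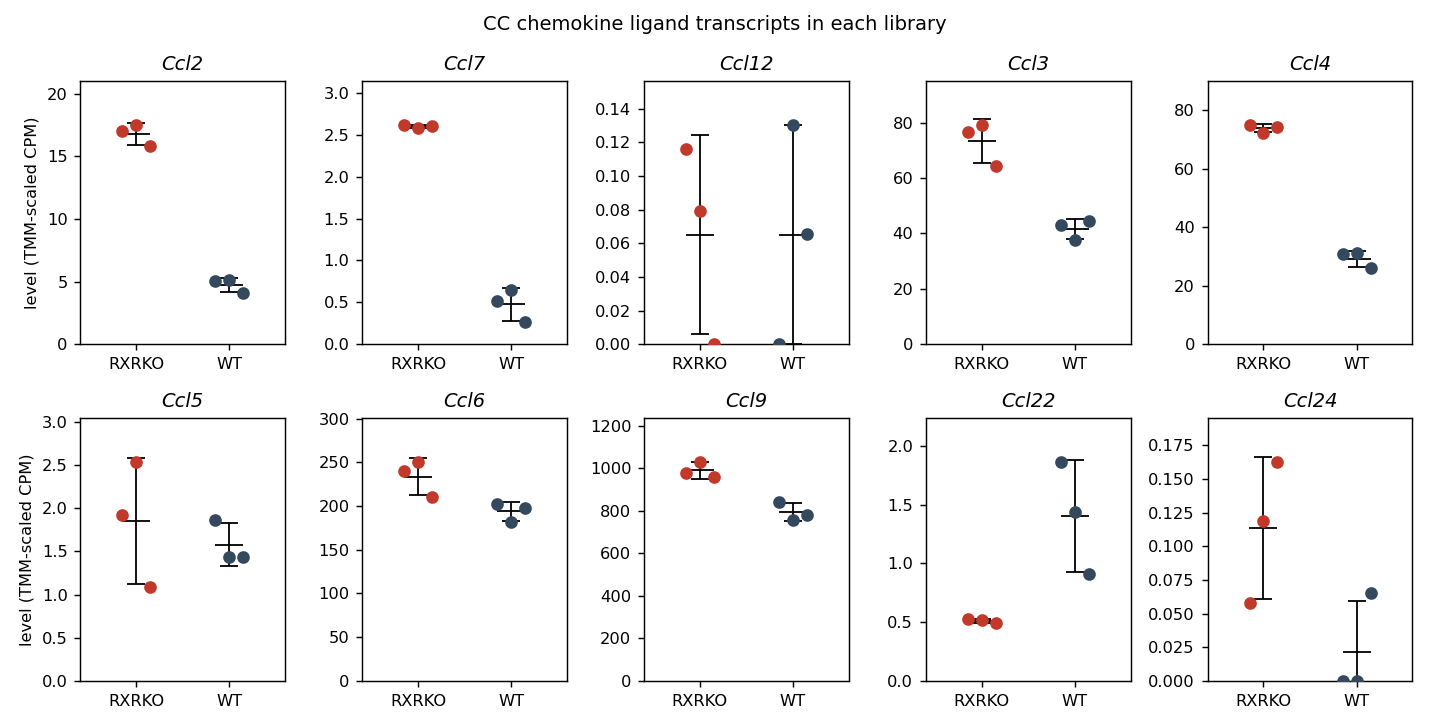
Level of each of the 10 CC chemokine ligand transcripts in TMM-scaled CPM (linear axes from 0, a different range in each panel), with 1 point per library and the mean ± SD in black for RXRKO (red) and WT (dark blue), 3 libraries each. The groups separate for Ccl2, Ccl7, Ccl3, Ccl4, Ccl6, Ccl9 and Ccl22 and overlap for Ccl5, Ccl12 and Ccl24.

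The first group comprises the monocyte chemoattractants that bind CCR2. Ccl2 (ENSMUSG00000035385, chromosome 11, 82035571 to 82037453 on the plus strand in GRCm38), the main monocyte chemoattractant, had 17.0, 17.5 and 15.8 CPM in RXRKO replicates 1, 2 and 3 and 5.08, 5.09 and 4.11 CPM in WT replicates 1, 2 and 3. These values came from 293, 441 and 291 reads in RXRKO and 49, 39 and 63 reads in WT. The lowest RXRKO library was well above the highest WT library. The mean was 16.8 ± 0.876 CPM in RXRKO and 4.76 ± 0.561 CPM in WT (SD, n = 3 each), a difference of 1.84 on the log2 scale (SE 0.147, edgeR adjusted p = 3.6e-06) or a fold of 3.58 with a 95% interval from 2.87 to 4.47. Of all 12011 tested genes, 70 including Ccl2 had a log2 fold change at least as high.

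Ccl7 (ENSMUSG00000035373, chromosome 11, 82045712 to 82047525, plus strand), a second CCR2 ligand that attracts monocytes, had 45, 65 and 48 reads in RXRKO replicates 1, 2 and 3 and 5, 5 and 4 reads in WT replicates 1, 2 and 3. Scaled for depth these were 2.62, 2.58 and 2.61 CPM in RXRKO and 0.519, 0.652 and 0.261 CPM in WT. RXRKO libraries were tightly grouped and every one was above every WT library. On the log2 scale the difference was 2.55 (SE 0.372, 95% interval 1.75 to 3.36, edgeR adjusted p = 4.3e-04), and 35 tested genes including Ccl7 reached it. The WT level rests on 14 reads in all against 158 in RXRKO, and the pooled read ratio of 6.06 has an exact 95% counting interval from 3.5 to 11.3. Thinned to 7880320 counts per library, the log2 fold change of Ccl7 was 2.0 (edgeR adjusted p = 0.0035).

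Ccl12 (ENSMUSG00000035352, chromosome 11, 82101845 to 82103400, plus strand), the remaining CCR2 ligand of this stretch in the mouse, was barely detected. It had 2, 2 and 0 reads in RXRKO replicates 1, 2 and 3 and 0, 1 and 1 reads in WT replicates 1, 2 and 3. A library with 0 reads still allows up to 0.163 CPM in RXRKO replicate 3 and 0.311 CPM in WT replicate 1, taking 3 reads as the limit. The pooled ratio of RXRKO to WT was 1.07 with an exact counting interval from 0.154 to 11.9, so no difference was detectable at this depth and none of moderate size could have been seen. Counting intervals and limits cover counting error alone, and reads carry no molecular identifiers.

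Beside their ligands, the gene of the receptor CCR2 fell. Ccr2 averaged 7.16 ± 0.815 CPM in RXRKO and 10.6 ± 0.464 CPM in WT (SD, n = 3 each), a difference of -0.57 on the log2 scale (SE 0.147, edgeR adjusted p = 0.0166). Its call was lost without RXRKO replicate 1 (adjusted p = 0.0789), without WT replicate 1 (0.0671) and after thinning (0.0586).

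The second group holds the macrophage inflammatory proteins Ccl4 and Ccl3 and, beside them, Ccl5. Ccl4 (ENSMUSG00000018930, chromosome 11, 83662584 to 83664683, plus strand), also called MIP-1 beta, had 75.0, 72.3 and 74.4 CPM in RXRKO replicates 1, 2 and 3 and 30.7, 31.0 and 26.1 CPM in WT replicates 1, 2 and 3. All RXRKO libraries stood far above all WT libraries, with 1290, 1821 and 1369 reads in RXRKO and 296, 238 and 400 reads in WT. On the log2 scale the difference was 1.34 (SE 0.0962, edgeR adjusted p = 1.4e-06), a fold of 2.54 with a 95% interval from 2.19 to 2.93.

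Ccl3 (ENSMUSG00000000982, chromosome 11, 83647844 to 83649355, minus strand), also called MIP-1 alpha, which binds CCR1, had 76.5, 79.2 and 64.3 CPM in RXRKO replicates 1, 2 and 3 and 43.0, 37.7 and 44.3 CPM in WT replicates 1, 2 and 3. RXRKO replicate 3 was the lowest of its group and was still above every WT library. The mean was 73.3 ± 7.93 CPM in RXRKO and 41.7 ± 3.51 CPM in WT (SD, n = 3 each), a difference of 0.81 on the log2 scale (SE 0.105, 95% interval 0.58 to 1.04, edgeR adjusted p = 1.7e-04).

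Ccl5 (ENSMUSG00000035042, chromosome 11, 83525778 to 83530518, minus strand), which binds CCR1 and CCR3 and attracts T cells, had 33, 64 and 20 reads in RXRKO replicates 1, 2 and 3 and 18, 11 and 22 reads in WT replicates 1, 2 and 3. The levels were 1.92, 2.54 and 1.09 CPM in RXRKO and 1.87, 1.43 and 1.44 CPM in WT, and the groups overlapped. RXRKO replicate 3 was the lowest of all 6 libraries and RXRKO replicate 2 the highest. On the log2 scale the difference was 0.26 (SE 0.354, edgeR adjusted p = 0.664), and it had a 95% interval from -0.51 to 1.02, which includes both no change and a rise as large as that of Ccl3. Without RXRKO replicate 2 the sign turned (log2 fold change -0.074, adjusted p = 0.930).

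Ccr1, the gene of a receptor of Ccl3, averaged 16.2 ± 3.31 CPM in RXRKO and 20.6 ± 3.13 CPM in WT (-0.33 on the log2 scale, SE 0.161, edgeR adjusted p = 0.172, not past the threshold).

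The third group, Ccl9 and Ccl6, are ligands of CCR1 in the mouse and had the most reads of the 10 members. Ccl9 (ENSMUSG00000019122, chromosome 11, 83572919 to 83578636, minus strand) had 980, 1032 and 958 CPM in RXRKO replicates 1, 2 and 3 and 844, 759 and 782 CPM in WT replicates 1, 2 and 3. The groups did not overlap. On the log2 scale the difference was 0.32 (SE 0.0778, 95% interval 0.15 to 0.49, edgeR adjusted p = 0.0127). The call was lost without RXRKO replicate 1 (adjusted p = 0.0613), without RXRKO replicate 2 (0.0749) and without WT replicate 2 (0.0502). Of the 3010 distinct stretches of 36 bases in Ccl9 transcripts of GENCODE M21, 6.41% also occur in transcripts of other genes, so some of its reads may have been placed ambiguously.

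Ccl6 (ENSMUSG00000018927, chromosome 11, 83587882 to 83593087, minus strand), the neighbour of Ccl9, had 240, 251 and 210 CPM in RXRKO replicates 1, 2 and 3 and 203, 181 and 197 CPM in WT replicates 1, 2 and 3. The lowest RXRKO library was just above the highest WT library. On the log2 scale the difference was 0.27 (SE 0.088, 95% interval 0.078 to 0.46), and the edgeR adjusted p of 0.0492 lay at the edge of the threshold. The call held without RXRKO replicate 3 but not without any of the other 5 libraries (adjusted p from 0.0592 to 0.205) nor after thinning (0.0786) or with limma-voom (0.0514). Only 0.74% of the 36-base stretches of Ccl6 occur in another gene, and none of those of Ccl2, Ccl3, Ccl4, Ccl5, Ccl7, Ccl12, Ccl22 or Ccl24 do.

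The last group holds the ligands of CCR4 and CCR3, associated with type 2 immune responses. Ccl22 (ENSMUSG00000031779, chromosome 8, 94745590 to 94751699, plus strand), a CCR4 ligand made by dendritic cells and macrophages that attracts regulatory and type 2 helper T cells, had 9, 13 and 9 reads in RXRKO replicates 1, 2 and 3 and 18, 11 and 14 reads in WT replicates 1, 2 and 3. Scaled for the unequal depth these were 0.523, 0.516 and 0.489 CPM in RXRKO and 1.87, 1.43 and 0.914 CPM in WT. WT libraries were spread widely and the lowest of them was still above every RXRKO library. On the log2 scale the difference was -1.40 (SE 0.408, 95% interval -2.28 to -0.51, edgeR adjusted p = 0.0303), on 31 reads in RXRKO and 43 in WT. The call held without WT replicate 3 but not without any of the other 5 libraries (adjusted p from 0.0575 to 0.180), nor with DESeq2 (0.0804) or with no filter on low counts (0.0536).

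Ccl24 (ENSMUSG00000004814, chromosome 5, 135569937 to 135573049, minus strand), a CCR3 ligand that attracts eosinophils, had 1, 3 and 3 reads in RXRKO replicates 1, 2 and 3 and 0, 0 and 1 reads in WT replicates 1, 2 and 3. A single read thus stood for the whole WT group. The pooled ratio of 3.76 had an exact counting interval from 0.482 to 169, so the reads do not set a direction.

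**Figure D2:**
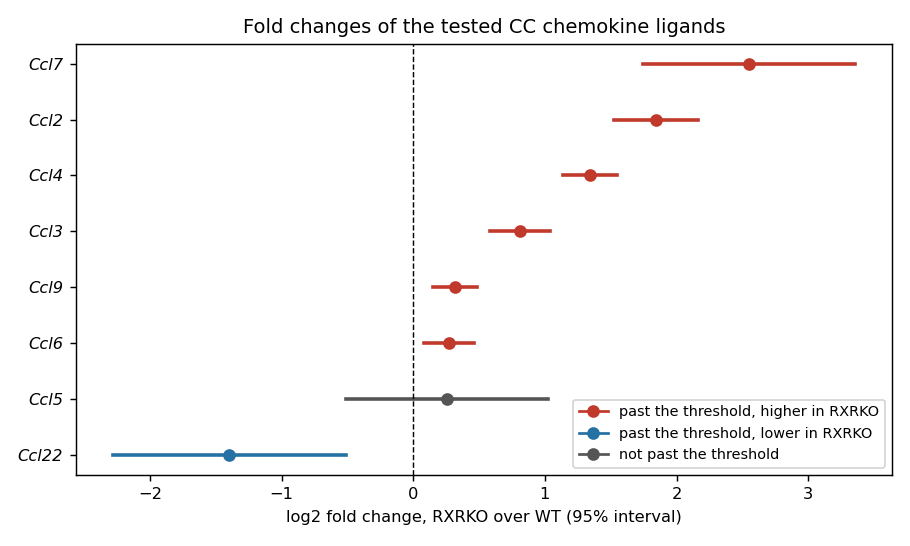
Log2 fold change of the 8 tested CC chemokine ligands, RXRKO over WT, as points with 95% intervals from the edgeR fit, coloured by whether the Benjamini-Hochberg adjusted p was below 0.05 and in which direction. Ccl7 and Ccl22 have the widest intervals among the called genes, from 1.75 to 3.36 and from -2.28 to -0.51, and the interval of Ccl5 includes 0.

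Levels of different genes were set side by side per kilobase of exon. In RXRKO the order was Ccl9 at 325 ± 12.4, Ccl6 at 130 ± 11.6, Ccl4 at 112 ± 2.18, Ccl3 at 95.7 ± 10.4, Ccl2 at 14.7 ± 0.77, Ccl7 at 3.25 ± 0.024 and Ccl5 at 1.93 ± 0.76 CPM per kilobase, with the others below 1 (mean ± SD, n = 3). In WT, Ccl9 stood at 261 ± 14.3, Ccl6 at 108 ± 6.15, Ccl3 at 54.4 ± 4.58, Ccl4 at 44.4 ± 4.17, Ccl2 at 4.18 ± 0.493 and Ccl5 at 1.65 ± 0.26 CPM per kilobase, with the others below 1. Ccl4 thus stood above Ccl3 in RXRKO and below it in WT, and the ranges of these neighbours in the order did not overlap within either genotype. Before division by exon length, Ccl4 and Ccl3 averaged 73.9 and 73.3 CPM in RXRKO, with overlapping ranges. Their order in RXRKO therefore rests on the exon lengths used, 660 bases for Ccl4 and 766 for Ccl3. In WT, the ranges of Ccl22 and Ccl7, which follow Ccl5, overlapped. The 10 genes together took 0.139%, 0.146% and 0.132% of all reads in RXRKO replicates 1, 2 and 3, against 0.113%, 0.0991% and 0.108% in WT replicates 1, 2 and 3. Ccl9 alone supplied 70.3% to 72.2% of those reads in RXRKO libraries and 74.0% to 74.7% in WT libraries.

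Of the 10 genes, 8 lie on chromosome 11 in 2 blocks that are 1.42 Mb apart. The first block, Ccl2, Ccl7 and Ccl12, spans 67.8 kb, and the second, Ccl5, Ccl9, Ccl6, Ccl3 and Ccl4, spans 139 kb. Between the outermost members lie 50 other genes of the table, of which 22 were tested and 3 rose, Rffl, Slfn5 and the pseudogene Slfn10-ps, while 0 fell. Of all 12011 tested genes, 9.77% were called higher and 9.61% lower, and so few neighbours do not show a regional rise. Within the blocks no other gene was tested. Ccl22 lies on chromosome 8 and Ccl24 on chromosome 5. No member shares exon bases with another annotated gene.

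Ratios between neighbouring tested genes do not depend on library scaling. The ratio of Ccl4 to Ccl3 per kilobase was 1.14, 1.06 and 1.34 in RXRKO replicates 1, 2 and 3 and 0.830, 0.956 and 0.684 in WT replicates 1, 2 and 3, with no overlap between the groups. The ratio of Ccl3 to Ccl6 was 0.748, 0.740 and 0.717 in RXRKO and 0.497, 0.487 and 0.527 in WT. The ratio of Ccl7 to Ccl2 was 0.218, 0.209 and 0.234 in RXRKO and 0.145, 0.182 and 0.0902 in WT, the WT values resting on 4 or 5 Ccl7 reads each. For these ratios the groups did not overlap, and the two-sided exact permutation p was 0.1 for each, the smallest that 3 against 3 libraries allow (0.167 after Benjamini-Hochberg adjustment over 5 ratios). The ratio of Ccl6 to Ccl9 was 0.415, 0.412 and 0.372 in RXRKO and 0.408, 0.405 and 0.428 in WT, with overlapping groups (exact permutation p = 0.6, adjusted 0.75). The ratio of Ccl9 to Ccl5, limited by few Ccl5 reads, also overlapped (exact permutation p = 0.9, adjusted 0.9).

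**Figure D3:**
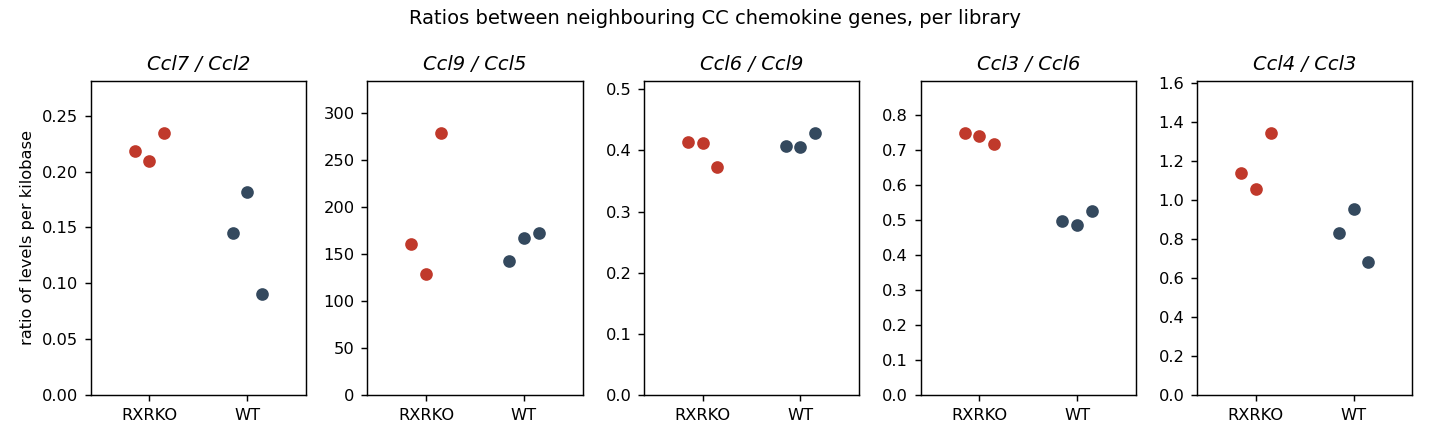
Ratio of levels per kilobase between neighbouring tested CC chemokine genes on chromosome 11 (linear axes from 0), 1 point per library, RXRKO in red and WT in dark blue. RXRKO libraries lie above WT libraries for Ccl7 over Ccl2, Ccl3 over Ccl6 and Ccl4 over Ccl3, and the groups overlap for Ccl9 over Ccl5 and Ccl6 over Ccl9.

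The bases upstream of Ccl3, Ccl9, Ccl6 and Ccl22 are shown because these called genes are among the 5 members matched in the RefSeq promoter table (Ccl12 is the fifth). Each is the 250 bases before the gene's RefSeq start in GRCm38, from which distances are counted, read 5′ to 3′ on the gene's strand, with capitals marking matches on either strand to an NF-kB pattern (GGG, 5 bases of any kind, then CC) or to the nuclear receptor half-site AGGTCA.
Ccl3, chr11:83649379-83649628, minus strand: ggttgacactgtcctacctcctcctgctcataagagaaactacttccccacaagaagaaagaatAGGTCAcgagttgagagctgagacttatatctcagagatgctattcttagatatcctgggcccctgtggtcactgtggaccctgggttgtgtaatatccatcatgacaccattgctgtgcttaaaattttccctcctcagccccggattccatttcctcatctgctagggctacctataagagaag
Ccl9, chr11:83578637-83578886, minus strand: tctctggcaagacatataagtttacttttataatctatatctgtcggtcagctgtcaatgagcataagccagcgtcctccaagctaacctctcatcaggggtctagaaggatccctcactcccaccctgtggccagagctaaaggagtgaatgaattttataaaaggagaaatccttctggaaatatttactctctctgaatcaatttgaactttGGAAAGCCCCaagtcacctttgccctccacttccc
Ccl6, chr11:83593088-83593337, minus strand: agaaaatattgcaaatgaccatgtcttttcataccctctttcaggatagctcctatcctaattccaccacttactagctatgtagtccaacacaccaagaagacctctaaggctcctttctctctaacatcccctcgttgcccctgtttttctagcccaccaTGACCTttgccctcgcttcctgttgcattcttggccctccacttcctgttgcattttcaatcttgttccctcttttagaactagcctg
Ccl22, chr8:94745434-94745683, plus strand: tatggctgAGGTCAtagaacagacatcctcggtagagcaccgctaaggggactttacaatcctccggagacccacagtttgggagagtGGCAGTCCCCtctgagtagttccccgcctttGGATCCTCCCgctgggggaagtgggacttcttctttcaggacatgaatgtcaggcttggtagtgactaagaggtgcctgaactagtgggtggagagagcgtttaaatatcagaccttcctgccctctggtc

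The RefSeq starts of Ccl9 and Ccl6 are the GENCODE starts given above, but that of Ccl22 lies downstream of its GENCODE start, so that the end of its window is inside the gene as GENCODE annotates it, and that of Ccl3 lies upstream of its GENCODE start. The window of Ccl3 held a half-site at -186 to -181 from the start and that of Ccl6 a reverse half-site at -88 to -83. Ccl9 held an NF-kB pattern at -35 to -26. Ccl22, the member that fell, held a half-site at -242 to -237 and NF-kB patterns at -162 to -153 and -131 to -122, none overlapping. Among 32851 windows of the same length in the table, 45.8% held the NF-kB pattern and 14.0% the half-site. Half-sites AGGTCA in direct repeat, spaced by 1 base and by 4 bases, were in 0.0335% and 0.0152% of all windows and in 0 of the 5 member windows. These matches describe the letters of the windows and say nothing of binding.

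Other genes of the chemokine system were counted from fixed lists, to be read against the 9.77% of all tested genes called higher and 9.61% called lower. Of 10 further CC ligand genes, 2 were tested, 0 rose and 0 fell, and Ccl1, Ccl11, Ccl17, Ccl19, Ccl20 and Ccl26 had 0 reads in all 6 libraries. Ccl25, the most abundant of them, averaged 3.38 ± 1.1 CPM in RXRKO and 3.04 ± 0.563 CPM in WT (log2 fold change 0.13, edgeR adjusted p = 0.784), and its sign turned without RXRKO replicate 3 or WT replicate 1. Among receptor genes, Ccr1l1, a paralogue of Ccr1, rose on 20, 31 and 17 reads in RXRKO against 4, 1 and 6 reads in WT (log2 fold change 1.71, SE 0.466, edgeR adjusted p = 0.0218), and this call held without RXRKO replicate 3 but not without any of the other 5 libraries (adjusted p from 0.0545 to 0.0773), nor with DESeq2 (0.0877). Ccr1l1 passed the filter on low counts through its RXRKO libraries, at 1.16, 1.23 and 0.924 CPM, while its WT libraries, at 0.415, 0.130 and 0.392 CPM, were below the cutoff of 0.621 CPM. Of 17 CXC, C and CX3C ligand genes, 7 were tested and 1 rose, Cxcl14, at 21.1 ± 1.54 CPM in RXRKO and 1.91 ± 0.554 CPM in WT (log2 fold change 3.54, edgeR adjusted p = 1.1e-07), while 6 did not pass (median log2 fold change over the 7, -0.17).

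Among genes that regulate or accompany chemokine induction, calls went in both directions. Over all tested genes, 9.77% were called higher and 9.61% lower, and lists this short cannot be told from those shares. All 14 genes of NF-kB subunits and inhibitors were tested, of which 2 rose, 2 fell and 10 were not called (median log2 fold change over the 14, -0.047). The inhibitor gene Nfkbia averaged 89.4 ± 1.77 CPM in RXRKO and 126 ± 4.52 CPM in WT (log2 fold change -0.49, edgeR adjusted p = 7e-04), and Nfkbiz, a nuclear regulator of NF-kB target genes, averaged 25.6 ± 0.544 CPM in RXRKO and 37.2 ± 5.2 CPM in WT (-0.55, adjusted p = 0.0044). The subunit gene Rel was higher (0.37, edgeR adjusted p = 0.0205, up to 0.109 with 1 library left out), and so was the kinase subunit gene Ikbkg (0.24, adjusted p = 0.0469), whose call did not survive the loss of any 1 library. Of 12 inflammatory cytokine and mediator genes, 4 were tested, 0 rose, 2 fell and 2 did not pass (median over the 4, -0.32). Il10, which encodes an anti-inflammatory cytokine, averaged 3.49 ± 0.683 CPM in RXRKO and 11.5 ± 2.43 CPM in WT (log2 fold change -1.74, edgeR adjusted p = 7e-05). Tnf, often induced together with Ccl3 and Ccl4, averaged 42.9 ± 4.26 CPM in RXRKO and 54.1 ± 3.44 CPM in WT (-0.33, edgeR adjusted p = 0.0331), and its call was lost after thinning (0.216) and without RXRKO replicate 2 or 3 or WT replicate 1 or 2 (adjusted p from 0.0695 to 0.119). Of 11 genes of the STAT6 pathway and alternative activation, the setting in which Ccl17, Ccl22 and Ccl24 are induced, 7 were tested, 2 rose, 2 fell and 3 did not pass (median over the 7, 0.053). Il4ra (0.57) and Irf4 (1.02, adjusted p = 0.0504 without WT replicate 1) rose, and Mrc1 (-0.46) and the lectin gene Clec10a (-2.81) fell.

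Markers of the labelled cell type were abundant in every library. The counts of markers called below stand beside 9.77% of all tested genes called higher and 9.61% called lower. The 8 macrophage markers, Adgre1, Csf1r and Cd68 among them, summed to between 7437 and 8616 CPM in RXRKO and between 6567 and 7575 CPM in WT, and 3 of them rose and 2 fell, with 1 falling when any library was left out. Of 9 dendritic cell markers, which bear on Ccl22, 8 had too few reads for a test and Cd83 did not pass, with sums of 38 to 50.6 CPM in RXRKO and 38.5 to 44.2 CPM in WT. These sums were almost all Cd83, which averaged 42.4 CPM in RXRKO and 40.3 CPM in WT. Of 10 neutrophil markers 4 fell, or 3 to 4 with 1 library left out, and 1 rose, but 0 without RXRKO replicate 1, WT replicate 1 or WT replicate 3, after thinning or with DESeq2, with sums of 994 to 1105 CPM in RXRKO and 1091 to 1235 CPM in WT. Sums were 11.1 to 13.3 CPM in RXRKO and 11.2 to 15.5 CPM in WT for 8 T and NK cell markers, of which 0 of 2 tested changed. They were 1.79 to 3.43 CPM in RXRKO and 4.83 to 6.14 CPM in WT for 6 B cell markers, of which 1 fell, 7.44 to 9.09 CPM in RXRKO and 5.62 to 7.56 CPM in WT for 9 mast cell, basophil and eosinophil markers, of which 0 of 4 tested changed, and 4.45 to 10.5 CPM in RXRKO and 10 to 11.7 CPM in WT for 7 fibroblast markers, of which 1 fell (2 without RXRKO replicate 3). Most of the T and NK sum was Cd4, which averaged 10.3 CPM in RXRKO and 12.5 CPM in WT. Most of the B cell sum was Cd79b, at 1.70 CPM in RXRKO and 5.25 CPM in WT. The part of these cell types in the chemokine differences was not tested.

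**Figure D4:**
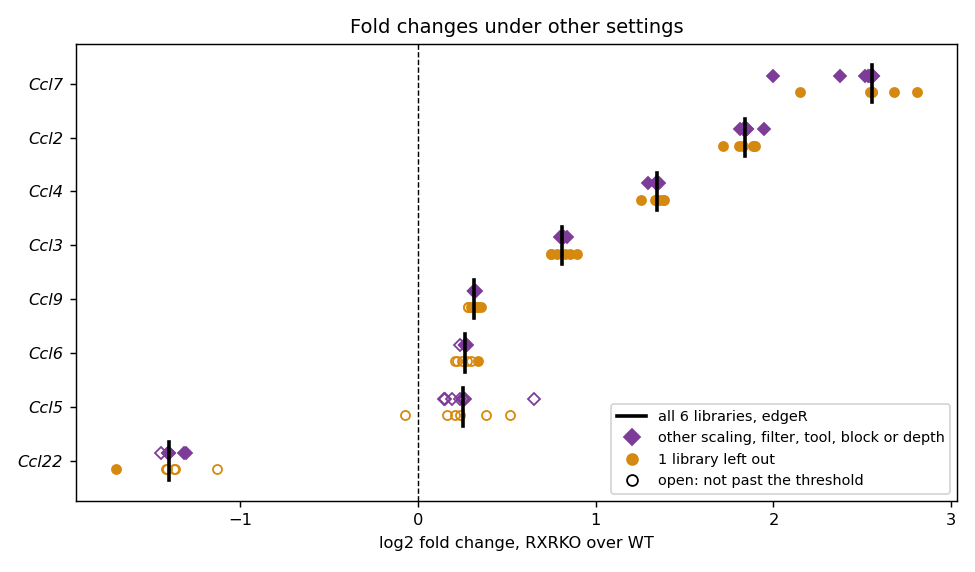
Log2 fold change, RXRKO over WT, of the 8 tested CC chemokine ligands with all 6 libraries (black bars), with another scaling, filter, tool, replicate block or depth (diamonds), and with 1 library left out (circles); open symbols have an adjusted p of 0.05 or more. Ccl7, Ccl2, Ccl4 and Ccl3 have filled symbols throughout, while Ccl9, Ccl6 and Ccl22 have both kinds.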

How the data were processed

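The authors deposited raw counts per Ensembl gene, used for all main tests, and a second table of log2 values that they normalized, used in 1 alternative. Per the submitters' processing notes, TopHat2 2.0.7, DESeq and the build mm10 (GRCm38) were used; the counter, annotation release and strand setting have not been given in the sources used here, so reads of overlapping or similar genes may be misplaced. Per the labels' protocols, polyadenylated RNA (100 ng total input) went through NEBNext Ultra II and 75-cycle sequencing. Each deposited log2 column is the log2 of the count times 1 constant, so counts of 1 stand as 0 in RXRKO columns. Symbols and positions were matched by identifier to GENCODE M21 for 45106 of 45193 genes.

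The main test was the robust quasi-likelihood fit of edgeR 4.0.16 in R 4.3.3, scaled by TMM, with genotype as its single term, on 12011 genes kept by filterByExpr (minimum count 10, minimum total 15), with Benjamini-Hochberg adjustment over all of them and a threshold of 0.05. Each SE was derived from the log2 fold change and its F value. Alternatives were RLE and upper-quartile factors, no filter, a filter of at least 1 CPM in 3 libraries, DESeq2 1.42.0, limma-voom and limma 3.58.1 on the authors' log2 values (turned back to the linear scale, pseudocount 1), a replicate block, thinning to the smallest library, and each library left out. Members and lists were chosen with earlier results of these data known. Named were all members, genotype checks, and from each list the genes past the threshold with the smallest adjusted p, up to 3 each way, or the most abundant gene; the 5 ratios of neighbouring genes, Ccr1 and the marker, sex-linked and neighbouring genes were chosen after their values were seen. Context genes were put through the same alternatives after seeing the data. Counts over the list of chemokine receptor genes are not reported here.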

Additional observations from a re-analysis of the deposited data

How the results depend on the processing

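Ccl2, Ccl3, Ccl4 and Ccl7 kept their direction and stayed past the threshold under all 15 alternatives, with log2 fold changes of 1.72 to 1.94, 0.75 to 0.90, 1.25 to 1.38 and 2.0 to 2.81. The number of members lower in RXRKO, 1 with all libraries (Ccl22), was 0 with no filter, with the CPM filter (which removed Ccl22), with DESeq2, after thinning (which removed it too) and with the replicate block. With 1 library left out, 4 to 6 members were called, 4 to 6 higher and 0 to 1 lower, against 7, 6 and 1 with all libraries. Over all genes, 1286 to 2607 were then called, 667 to 1278 higher and 619 to 1329 lower, against 2327, 1173 and 1154. Leaving out 1 library, Ccl5 ran from -0.074 to 0.522 (negative without RXRKO replicate 2) and Ccl25 from -0.144 to 0.351 on the log2 scale (negative without RXRKO replicate 3 or, at -0.0053, WT replicate 1). The cause was not tested. With the replicate number as a block, 4 members were called, all higher, and 1375 genes, 709 higher and 666 lower; 0 macrophage markers were then lower and 0 neutrophil markers higher. Deviations from the group means correlated at 0.091, -0.404 and -0.343 for same-numbered libraries. For differently numbered libraries the correlations ran from -0.181 to 0.441. Deviations from a mean of 3 libraries are tied to each other, so these values cannot decide whether same-numbered libraries were paired. RLE and upper-quartile factors moved the median of all genes by less than 0.1 on the log2 scale. Depth limits Ccl5, Ccl7, Ccl12, Ccl22 and Ccl24, and RXRKO libraries were the deeper ones.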
